A study of Mus musculus with 6 samples.

Results

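The miR-30 family was followed as the 5 mouse microRNA (miRNA) entries mmu-miR-30a, mmu-miR-30b, mmu-miR-30c, mmu-miR-30d and mmu-miR-30e (written below without the species prefix), chosen by name from the 611 mouse miRNAs on the array. All 5 were detected on all 6 arrays. Knockout (KO) samples were bone-marrow-derived macrophages of MxCre-RBP-Jf/f mice, and control samples were those of MxCre-RBP-Jf/+ mice, with 3 samples per genotype. RBP-J binds DNA and recruits the cleaved Notch receptor to the genes that Notch switches on, and the study asked which miRNAs lie downstream of it in macrophage polarization. The control titles say WT, but these mice also carry the Cre transgene and a floxed allele. All mice were female C57BL/6 and had received poly(I)-poly(C), which induces Cre from the interferon-responsive Mx promoter. That promoter is not restricted to macrophages, and the array carries no probe for Rbpj mRNA, so the deletion was not checked here. All cultures had been given lipopolysaccharide (LPS), a bacterial cell-wall component, for 24 h. The labels do not give the age of the mice, nor whether the replicates are different animals or cultures, and the p-values measure only how far these samples spread.

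miRNAs pair with messenger RNAs mainly through the seed, bases 2 to 8 counted from the 5′ end, and reduce their translation or stability. Members of the miR-30 family share a seed and so can act on overlapping sets of messages. The family has been tied to Notch signalling by its targeting of the Notch ligand Dll4 in endothelial cells of zebrafish and human. Apart from Notch, human miR-30a has been tied to autophagy by its targeting of the gene BECN1.

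The sequences show how far the probes of different members have to discriminate, with the seed in capitals. RefSeq's table for GRCm38.p6 gave the mature strand of 3 of the 5 members, and miR-30b and miR-30d are named only. miR-30a-5p lies at chr1:23272274-23272295 on the plus strand. miR-30c-5p has the same mature sequence from 2 genes, at chr1:23291714-23291736 on the plus strand (Mir30c-2) and at chr4:120769584-120769606 on the minus strand (Mir30c-1), which the array cannot tell apart. miR-30e-5p lies at chr4:120772660-120772681 on the minus strand. miR-384-5p, at chrX:105344332-105344354 on the minus strand, was the only other mature name of 1679 in the table with this seed, and it differs beyond it.
miR-30a-5p: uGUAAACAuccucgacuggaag
miR-30e-5p: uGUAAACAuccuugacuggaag
miR-30c-5p: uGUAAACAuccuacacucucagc
miR-384-5p: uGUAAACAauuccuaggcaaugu
Counted from the 5′ end of miR-30a-5p, miR-30e-5p differed at 1 of 22 bases (C13U). miR-30c-5p differed from miR-30a-5p at 5 of 22 bases, all between positions 13 and 20. The probe sequences were not used here, so how much of the signal of 1 member its neighbours contribute was not tested. In the RefSeq gene table of the same assembly the 6 genes of the members stand in 3 pairs of consecutive miRNA genes: Mir30a with Mir30c-2 on chromosome 1, Mir30c-1 with Mir30e on chromosome 4, and Mir30b with Mir30d on chromosome 15. The next miRNA gene after Mir30e in that order is Mir30f, which is not among the members followed here. Mir30c-1 and Mir30e lie inside Nfyc, which encodes a subunit of the CCAAT-binding factor NF-Y.

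Signal on the arrays was dimmer in the KO samples as a whole. The summed signal of all mouse miRNAs was 53252 ± 6648 intensity units in KO and 69175 ± 7533 in control samples (SD, n = 3 each), and every KO array lay below every control array. The number of miRNAs detected was 127 to 141 on KO arrays and 129 to 138 on control arrays. All 6 myeloid miRNAs examined were detected on every array. They summed to 21813 to 31446 units on KO arrays and 33498 to 39985 on control arrays, lower in KO as the whole array was. Most of that sum was miR-21, which averaged 24232 units in KO and 31007 in control samples and also counts in the whole-array sum. In the scaled fit described below, 4 of the 6 were above control and 2 below. Of 21 markers of lymphoid, erythroid, endothelial, stromal, epithelial, muscle and progenitor cells, 1 was detected, miR-10a of the Hox clusters. Its progenitor list of 2 miRNAs summed to 65.3 to 86.8 units on KO arrays and 59.4 to 100.3 on control arrays, and the other lists summed to between 0 and 10.8 units. Its part in any result was not tested. In bulk RNA, fewer cells that express a miRNA and less of it per cell cannot be told apart.

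The family gave a small part of the miRNA signal, close in both genotypes. Its 5 members summed to 364.8, 307.6 and 301.9 units on the KO arrays, and to 460.7, 357.8 and 459.6 units on the control arrays. The KO sums were thus mostly the lower ones, and the 2 genotypes overlapped. Relative to all mouse miRNA signal above 0, the family made up 0.613% ± 0.0653 in KO and 0.616% ± 0.0685 in control samples (SD, n = 3 each), with ranges of 0.543% to 0.672% and 0.564% to 0.694%. In intensity units the KO mean of the family sum was 0.762 times the control mean, and that of all mouse miRNAs was 0.770 times.

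By gene-level totals, 1 order of the signals held on 3 of 6 arrays, with exchanges only between neighbours in it. It is an order of brightness and not of molecules, because probes for different miRNAs differ in labelling and hybridisation. By gene-level total signal, miR-30b was the brightest member on 6 of 6 arrays, at 142.5 ± 35.7 units (SD over 6 arrays), and miR-30d followed at 100.4 ± 26.4 units, brighter than miR-30c on 5 of 6 arrays. miR-30c averaged 83.1 ± 8.89 units. The exception was KO replicate 3, where miR-30c had 75.5 units and miR-30d 70.5 units. By the brightest probe of each, a comparison added after the data were seen, this pair stood the other way round: miR-30c was above miR-30d on 5 of 6 arrays, all but control replicate 1. By totals a gap separated these 3 from the dim pair. Their lowest total was the 70.5 units of miR-30d, and the highest of the dim pair the 31.4 units of miR-30a. By the brightest probe this gap was absent: miR-30a reached 63.5 unscaled units on control replicate 1, and miR-30d fell to 58.0 on KO replicate 3. Within each of the 6 arrays miR-30a lay below miR-30d by either measure. In total signal miR-30a averaged 25.9 ± 3.86 units and miR-30e 23.5 ± 4.58 units, and their ranges overlapped. By totals miR-30e was above miR-30a in control replicates 2 and 3, while by the brightest probe miR-30a was above miR-30e on 6 of 6 arrays. Among the 611 mouse miRNAs, miR-30b held rank 39 by total signal on all 3 KO arrays and on 2 control arrays, and rank 41 on control replicate 1. miR-30c lay between ranks 47 and 49, miR-30d between 43 and 51, miR-30a between 79 and 106 and miR-30e between 84 and 105.

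**Figure D1:**
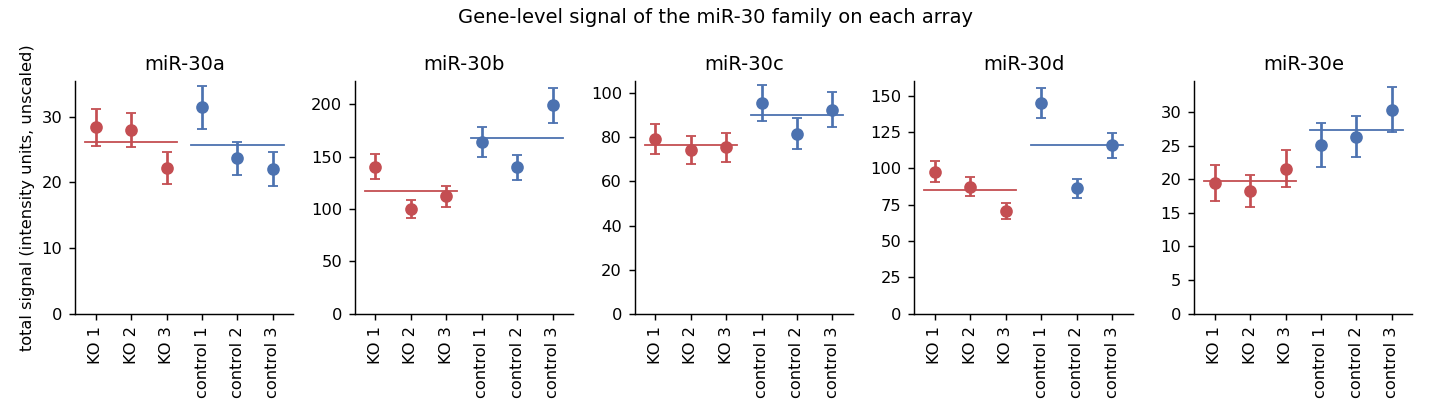
Gene-level total signal of each member (vertical axis, unscaled intensity units, starting at 0) on the 3 KO arrays (red) and the 3 control arrays (blue); error bars are the scanner software's error for that array and horizontal lines the genotype means. The KO arrays lie below every control array for miR-30c and miR-30e, and the genotypes overlap for the other members.

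The brightest pair, miR-30b and miR-30d, comes from neighbouring genes on chromosome 15. miR-30b had 140.2, 99.9 and 112 units in KO replicates 1, 2 and 3, against 163.9, 139.8 and 198.8 units in control replicates 1, 2 and 3. KO replicate 1 lay just inside the control range. miR-30d had 97.6, 87.2 and 70.5 units in KO samples, against 144.9, 86.3 and 115.9 units in control samples. The genotypes overlapped for both miRNAs. Among control arrays miR-30d had the widest spread of the family, with a coefficient of variation of 25.3%. The software's error for miR-30d within an array was 7.33% to 7.76%. Among KO arrays miR-30b spread most, at 17.6% beside 16.1% for miR-30d.

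miR-30c had 79.1, 74.3 and 75.5 units in KO samples, against 95.5, 81.6 and 92.5 units in control samples. All KO arrays lay below all control arrays. Its spread of 3.32% among KO and 8.14% among control arrays did not exceed the software's error of 8.46% to 8.69%. The dim members went different ways in units. miR-30e had 19.4, 18.3 and 21.6 units in KO samples, against 25.0, 26.3 and 30.3 units in control samples, without overlap. miR-30a had 28.4, 28.0 and 22.2 units in KO samples, against 31.4, 23.7 and 22.0 units in control samples, with the 2 ranges almost coinciding. The 2 members whose KO arrays were all lower in unscaled units, miR-30c and miR-30e, have to be set beside the arrays' brightness: the same pattern was found in 28.1% of the 135 tested miRNAs and the opposite one in 0%.

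After scaling between arrays, no member of the family passed the test between genotypes. Each probe's signal was divided by the array's 75th percentile over probes well above background on all arrays and put on a log2 scale, the miRNA's brightest probe was used, and limma was fitted to the 135 miRNAs detected on at least 3 arrays. The call rule was a Benjamini-Hochberg adjusted p under 0.05 over all 135. It called 0 of the 5 members, and 0% of the tested miRNAs. At an unadjusted p under 0.05 it again held 0 members, against 4.44% of the tested miRNAs, and the scaled values of the genotypes overlapped for all 5 members, while they did not overlap for 10.4% of the tested miRNAs.

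miR-30a had the highest fitted difference in the family. Its scaled log2 signal was -2.13, -1.94 and -2.59 in KO samples, against -2.18, -2.49 and -3.03 in control samples. Only KO replicate 3 lay within the range of the controls. The difference, KO minus control, was 0.34 (SE 0.26; 95% interval -0.25 to 0.94; limma adjusted p = 0.637). Without control replicate 3, the lowest array, it was 0.11, and without control replicate 1 it was 0.54. miR-10a, the detected marker from the progenitor list, differed by 0.49 on the same scale (SE 0.23; limma adjusted p = 0.637), at -1.30, -1.39 and -1.46 in KO samples, against -1.40, -1.94 and -2.29 in control samples, and its part in the value of miR-30a was not tested. miR-30c stood at -1.29, -1.10 and -1.39 in KO samples, against -1.35, -1.32 and -1.70 in control samples, a difference of 0.20 (SE 0.18; 95% interval -0.21 to 0.60; limma adjusted p = 0.682). KO replicate 3 lay below 2 of the 3 controls.

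miR-30b stood at -0.36, -0.57 and -0.71 in KO samples, against -0.49, -0.50 and -0.48 in control samples. The controls were the tightest of the family, and the KO samples lay on both sides of them. The difference was -0.06 (SE 0.16; 95% interval -0.42 to 0.31; limma adjusted p = 0.892). miR-30d stood at -1.48, -1.36 and -1.96 in KO samples, against -1.21, -1.75 and -1.88 in control samples, and miR-30e at -3.26, -3.13 and -3.17 in KO samples, against -3.30, -2.96 and -3.31 in control samples. The KO arrays were interleaved with the controls for miR-30d and lay inside the control range for miR-30e. The difference was 0.01 (SE 0.24; 95% interval -0.53 to 0.56; limma adjusted p = 0.978) for miR-30d and 0.0028 (SE 0.17; 95% interval -0.38 to 0.38; limma adjusted p = 0.987) for miR-30e.

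The precision of 3 arrays per genotype bounds these differences. All 5 intervals lay within a 2-fold difference in either direction under this scaling, as did 4 of 5 with no filter on dim miRNAs or when 1 array was left out (5 of 5 without control replicate 3) and 3 of 5 with no scaling between arrays. As scaled, 4 of 5 members were above control and 1 below, beside 97 above and 38 below among the 135 tested miRNAs. The median tested miRNA stood 0.11 above control, so values are also given relative to it: 0.24 for miR-30a, 0.09 for miR-30c, -0.10 for miR-30d, -0.11 for miR-30e and -0.17 for miR-30b. The family median was 0.01 as KO minus control, and -0.10 relative to the median miRNA. These splits move with the scaling: 2 members were above control and 3 below with quantile scaling (70 and 65 of the 135) and with median scaling (53 and 82 of the 135). With no scaling, 0 members were above control and 5 below (14 and 121 of the 135), and the median miRNA stood at -0.31. Relative to the median miRNA, miR-30a was on the higher side in 20 of 20 alternative fits, with values between 0.05 and 0.43, and miR-30e on the lower side in 19 of 20. The exception for miR-30e was the fit with no filter on dim miRNAs, in which the median is set by miRNAs without signal. All these fits reuse the same arrays, so the counts are not independent repeats. The fits with a block for replicate or slide position, or with a variance trend, could not change the differences at all.

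**Figure D2:**
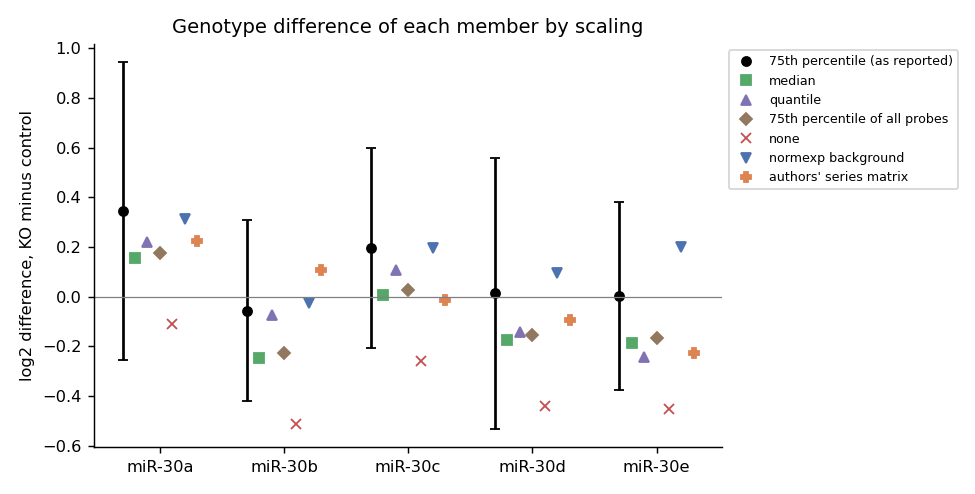
Genotype difference of each member (vertical axis, log2, KO minus control) under 7 ways of making the values comparable between arrays; black points are the values reported here with their 95% interval. With no scaling all 5 members lie below 0, from -0.51 to -0.11, and under every setting shown miR-30a has the highest value of the family.

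**Figure D3:**
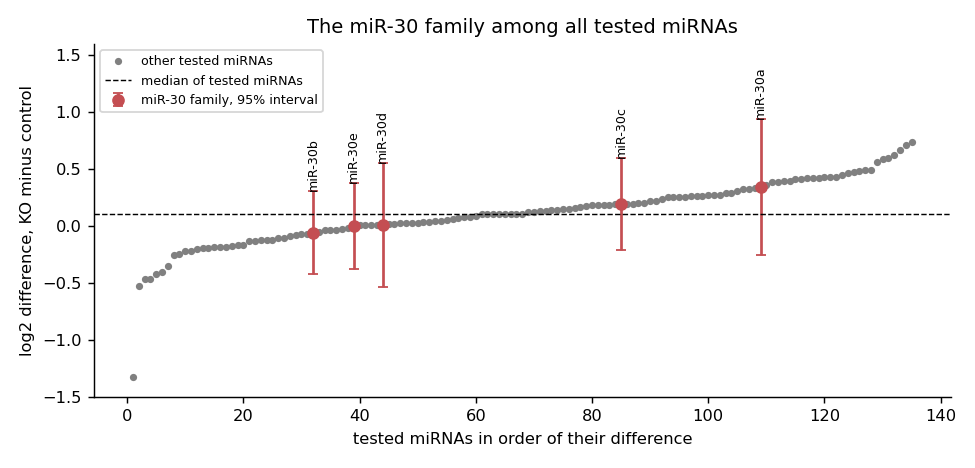
The 135 tested miRNAs in order of their log2 difference (KO minus control), with the miR-30 family in red and its 95% intervals; the dashed line is the median tested miRNA at 0.11. The 5 members lie between -0.06 and 0.34. Counted from the highest difference, at the right of the axis, they run from rank 27 (miR-30a) to rank 104 (miR-30b) of 135.

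All arrays lay on 1 slide. The first number of their position code was 1 for replicates 1 and 2 and 2 for replicate 3 of both genotypes. The second number was 2, 4 and 2 for KO replicates 1, 2 and 3, and 1, 3 and 1 for the control replicates. The genotypes shared no second number, so it cannot be told apart from genotype. Where the first number was 1 (2 against 2 arrays), miR-30a differed by 0.30, and where it was 2 (1 against 1), by 0.44. miR-30c differed by 0.13 and 0.32 at these first numbers. The signs at the 2 first numbers were opposite for miR-30b (0.03 and -0.23), miR-30d (0.06 and -0.08) and miR-30e (-0.07 and 0.14). With the first number as a block, limma adjusted p-values of the members were 0.588 or more.

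Shares within the family do not depend on the scaling between arrays. Each member's gene-level signal was divided by the sum of the 5 on the same array. miR-30a gave 7.77%, 9.09% and 7.36% of the family's signal on KO arrays, against 6.81%, 6.62% and 4.79% on control arrays. Every KO array lay above every control array. The mean was 8.07% ± 0.906 in KO and 6.07% ± 1.12 in control samples (SD, n = 3 each), a difference of 2.00 percentage points (two-sided exact permutation p = 0.1, the smallest that 3 against 3 arrays can give). Taken over the same family sum, 13.3% of the 135 tested miRNAs separated the genotypes, and 8.15% did so with KO higher. The same share from the brightest probe of each member was 12.2% in KO and 10.1% in control samples, where the genotypes overlapped (exact permutation p = 0.2), and in the authors' series matrix the difference was 0.929 percentage points.

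The other shares overlapped between genotypes. miR-30b gave 38.4%, 32.5% and 37.1% on KO arrays, against 35.6%, 39.1% and 43.3% on control arrays, a difference of -3.30 percentage points (exact permutation p = 0.4). miR-30c gave 21.7%, 24.1% and 25.0% on KO arrays, against 20.7%, 22.8% and 20.1% on control arrays, a difference of 2.40 percentage points (exact permutation p = 0.2). Only KO replicate 1 lay inside the control range for miR-30c. miR-30d averaged 26.2% ± 2.56 in KO and 26.9% ± 3.95 in control samples (SD, n = 3 each; exact permutation p = 0.8). miR-30e averaged 6.14% ± 0.926 in KO and 6.47% ± 0.968 in control samples (SD, n = 3 each; exact permutation p = 0.7). No share in this set of 5 could pass a threshold of 0.05 with 3 arrays per genotype.

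**Figure D4:**
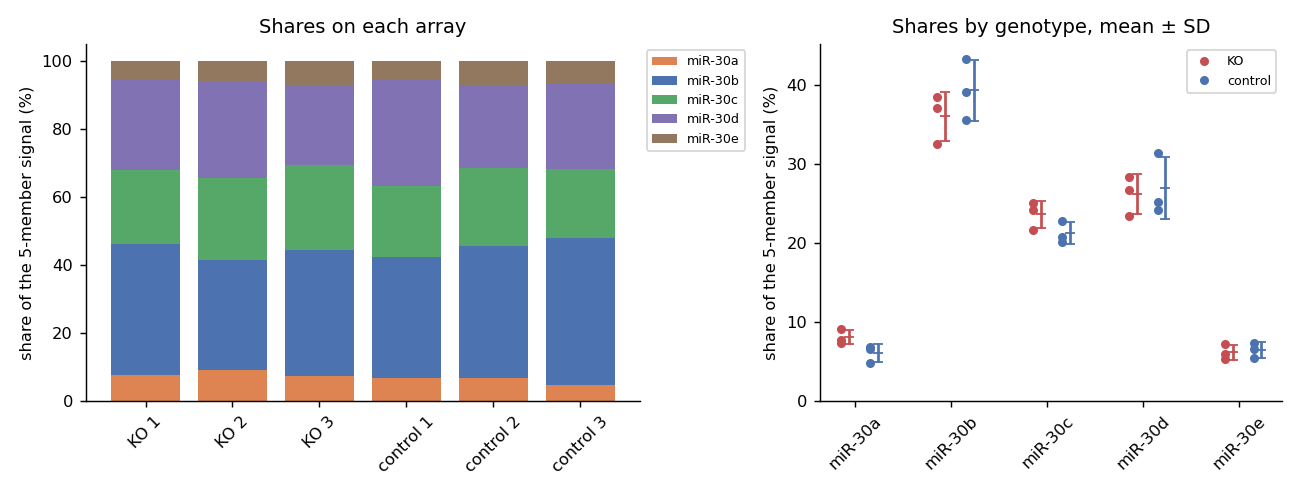
Share of the 5-member signal (percent) given by each member, stacked on each array (left) and by genotype (right; points are arrays, bars the mean ± SD of 3 arrays, KO red and control blue). miR-30b, miR-30c and miR-30d fill most of every bar, and miR-30a lies between 7.36% and 9.09% on KO arrays, against 4.79% to 6.81% on control arrays.

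miR-30a and miR-30e, which differ by the 1 base given above, were among the pairs that varied most against each other. miR-30a over miR-30e was 1.46, 1.53 and 1.03 on KO arrays, against 1.25, 0.899 and 0.725 on control arrays, by gene-level totals. KO replicates 1 and 2 had the highest ratios and control replicates 2 and 3 the lowest. The SD of the log2 ratio of these totals over 6 arrays was 0.42, beside 0.44 for miR-30a over miR-30b, the most variable pair. This ratio was chosen after its values were seen and was not tested.

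The ratios of members from neighbouring genes overlapped between genotypes in all 3 pairs. The log2 signal ratio of miR-30b over miR-30d, from their brightest probes, was 1.05 ± 0.237 in KO and 1.12 ± 0.355 in control samples (SD, n = 3 each; exact permutation p = 0.7). miR-30c over miR-30e, from the genes inside Nfyc, was 1.92 ± 0.127 in KO and 1.73 ± 0.189 in control samples (exact permutation p = 0.2). miR-30c over miR-30a was 0.96 ± 0.215 in KO and 1.11 ± 0.252 in control samples (exact permutation p = 0.6). The part of miR-30c that comes from either of its genes is unknown. Over all 6 arrays, the SD of this brightest-probe log2 ratio was 0.18 for miR-30c and miR-30e, the smallest of the 10 pairs of members, 0.23 for miR-30c and miR-30a, and 0.27 for miR-30b and miR-30d. The 10 pairs reached up to 0.40, for miR-30a and miR-30e, with a median of 0.24. The median over the 9045 pairs of tested miRNAs was 0.36, a value that includes dim miRNAs.

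Different probes of 1 member gave like differences where both had signal. The second probe of miR-30b differed by -0.09 (KO minus control, log2), beside -0.06 for the brightest. The second probes gave 0.14 for miR-30c, beside 0.20, and 0.05 for miR-30d, beside 0.01. For miR-30a the second probe was well above background on 2 KO arrays and 1 control array, and differed by 0.37 with 3 of 6 arrays at the floor of -4.32 (the value below which signals were not distinguished). The third probe of miR-30a was at the floor on 6 of 6 arrays, as was the second probe of miR-30e, so each of those miRNAs rests mainly on 1 probe. The spots of the probe used varied by 6.04% to 13.7% of their mean on an array for miR-30a and by 4.56% to 18.4% for miR-30e, against 1.57% to 4.21% for miR-30b. No spot of the 5 probes was saturated.

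**Figure D5:**
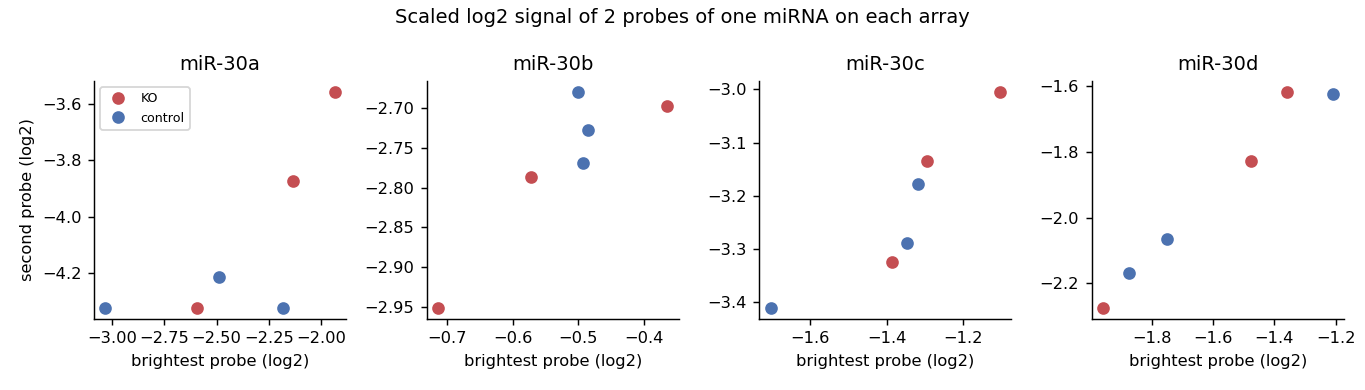
Scaled log2 signal of the second probe (vertical axis) against the brightest probe (horizontal axis) of miR-30a, miR-30b, miR-30c and miR-30d, with 1 point per array (KO red, control blue). Points at -4.32 for miR-30a are at the floor; the 2 genotypes mix along the same line for miR-30c and miR-30d.

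The other arms of the hairpins gave no detected signal. Of 5 passenger strands on the array (miR-30a*, miR-30b*, miR-30c-1*, miR-30c-2* and miR-30e*), 0 were called detected on any array by the scanner software, 0 were tested, and 12 of their 30 values were above 0. miR-30e* was the brightest, with 3.46, 2.70 and 3.84 units in KO samples, against 4.64, 4.71 and 6.35 units in control samples, where the software's error was 1.92 to 2.46 units. Its KO arrays lay below all control arrays in unscaled units, as did those of 28.1% of the tested miRNAs. miR-30a* lay between -1.81 and 0.221 units on the 6 arrays. The 2 strands are shown because their sequences differ at 1 base, in capitals (G18A, counted from the 5′ end of miR-30a-3p, the current name of miR-30a*). They lie at chr1:23272315-23272336 on the plus strand and chr4:120772618-120772639 on the minus strand of GRCm38.p6.
miR-30a-3p: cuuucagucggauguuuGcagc
miR-30e-3p: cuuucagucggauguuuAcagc
miR-384-5p, which shares the family's seed, was between -2.40 and -0.224 units on KO arrays and between -1.81 and 0.373 units on control arrays, and was detected on none. The sequence table lacks 2 of the 5 members, so other miRNAs on the array with this seed were not searched for in full.

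The miRNAs most like the family across the 6 arrays were ranked by the SD of their log2 ratio to the family mean. miR-107 came first with an SD of 0.05, followed by its close relative miR-103 with 0.08, miR-484 with 0.08, miR-500 with 0.08 and miR-331-3p with 0.09, where the median of the 130 tested miRNAs outside the family was 0.26. miR-484 was at the floor on 1 array. For single members the nearest miRNA was miR-10a for miR-30a (0.22), let-7i for miR-30b (0.06), miR-103 for miR-30c (0.08), miR-674* for miR-30d (0.08) and miR-193 for miR-30e (0.09, with 3 arrays at the floor). Each of these 5 lay closer to its member than any other member of the family did, the nearest of which were at 0.18 to 0.23, though they were the best of 130 candidates against 4. miR-30a had the most distant nearest neighbour.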

How the data were processed

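Cy3-labelled total RNA (0.5 ug per sample) was hybridised to 6 Agilent arrays, design 021828 in the file headers. Spot intensity values were deposited after background subtraction and detrending in Feature Extraction, version 10.5.1.1 in the headers and 9.1 in the submitters' processing notes. The gene-level totals deposited beside them are intensities that were not normalized between arrays. A series matrix from the authors gives log2 values, and its normalization is not stated.

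Spots with outlier flags were dropped, and the median processed signal was taken for 1759 mouse probes. A probe counted as well above background when at least 50% of its spots carried that flag. The scaling reference was the 75th percentile of the 200 probes that met this on every array, and scaled signals below the 5th percentile of detected values were set to it before log2 transformation. Each miRNA took its probe with the highest mean, and 135 miRNAs detected on at least 3 arrays were tested with limma 3.58.1 in R 4.3.3, adjusting over all of them. The 5 shares and 3 ratios got two-sided exact permutation tests, without adjustment. A test of the procedure on simulated data is not reported here, and no result rests on it. Alternatives covered background correction, scaling, filters, floor, probes, sources, blocks and left-out arrays. The members, lists and naming rule (the members, their probes and passenger strands, and the most similar miRNAs by ratio SD) were chosen with earlier results of these data known. Precision is limited by the number of arrays.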

Additional observations from a re-analysis of the deposited data

How the results depend on the processing

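In all 20 alternative fits 0 miRNAs were called by limma (smallest adjusted p of any miRNA 0.093, with normexp background correction), and the members' adjusted p-values ranged from 0.183 to 0.994. The unadjusted p was under 0.05 for 6 miRNAs as reported and for 1 (without KO replicate 2) to 26 (no scaling) in the alternatives. Signs of small differences changed with the processing, and the cause was not tested. With no scaling between arrays, miR-30a stood at -0.11, miR-30c at -0.26, miR-30d at -0.44 and miR-30e at -0.45. With all probes as the reference miR-30d stood at -0.15 and miR-30e at -0.17, with quantile scaling at -0.14 and -0.24, with median scaling at -0.18 and -0.19, and from gene-level totals at -0.10 and -0.14. In the authors' series matrix miR-30b stood at 0.11, miR-30c at -0.015, miR-30d at -0.10 and miR-30e at -0.23. There the share of miR-30b differed by 2.37 and that of miR-30c by -0.405 percentage points, and the log2 ratio of miR-30b over miR-30d by 0.20. With normexp, whose offset compresses dim signals by construction, the share of miR-30e differed by 0.642 percentage points and the log2 ratio of miR-30c over miR-30e by -0.0025.

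Leaving out each array in turn gave 0.11 to 0.54 for miR-30a, -0.15 to 0.024 for miR-30b, 0.07 to 0.26 for miR-30c, -0.12 to 0.21 for miR-30d and -0.059 to 0.12 for miR-30e. Share differences ranged over 1.36 to 2.37 percentage points for miR-30a, -5.16 to -1.32 for miR-30b, 1.70 to 3.36 for miR-30c, -2.17 to 1.48 for miR-30d and -0.843 to 0.118 for miR-30e. The log2 ratio differences ranged over -0.27 to 0.065 for miR-30b over miR-30d, 0.13 to 0.30 for miR-30c over miR-30e and -0.29 to -0.04 for miR-30c over miR-30a.

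The labels do not say whether equal replicate numbers pair the samples. Deviations from the genotype means correlated at 0.17, -0.07 and 0.37 over 135 miRNAs for numbers 1, 2 and 3. Between unequal numbers they correlated at -0.29 to 0.16. With the replicate block 0 miRNAs were called, and 13 had an unadjusted p under 0.05, beside 6 without it. Each number holds 1 array of each genotype, so the block could not change the difference of miR-30a. That difference was 0.34 (SE 0.18, beside 0.26 without the block; limma adjusted p = 0.515). The block gave an exact p of 0.25 for the share of miR-30a, the smallest that 3 pairs allow.

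Signal over background limits miR-30a, miR-30e and the passenger strands, and the number of arrays limits every comparison.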

Other observations

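Other miRNA families with a shared seed and several genes were described in the same fit, as KO minus control on the log2 scale. In the let-7 family, regulators of growth and differentiation, 7 of 9 tested members were above control and 2 below, with a median of 0.12 and a range of -0.47 to 0.31. In the miR-29 family, known for targeting collagens, 3 of 3 were above control, with a median of 0.18. In the miR-15/16 family, which targets cell-cycle and survival genes, 2 of 5 were above and 3 below, with a median of -0.02 and a range of -0.42 to 0.07. The miR-30 family's range of -0.06 to 0.34 overlapped all of these, and 0 members of any of the 4 families passed, as for all 135 tested miRNAs, whose median was 0.11. Of 20 miRNAs tied to Notch in other work, among them miR-30a, 10 were tested, 6 above and 4 below control, with a median of 0.08.

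The authors' series matrix gave miR-30b 1 identical log2 value, 7.15, on all 3 KO arrays and on control replicates 2 and 3, the same 5 arrays on which it held rank 39 by total signal. On control replicate 1, where it held rank 41, the matrix gave 6.83. The genotype difference of miR-30b in the matrix, 0.11, came from that array alone. Equal values at equal ranks were not particular to miR-30b. miR-30c had 6.36 on KO replicate 1 and control replicates 1 and 3, where it held rank 48. miR-30e, at rank 94 on KO replicate 1 and control replicate 1, had 4.50 and 4.52. How the matrix values were made was not tested.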
